A study of Mus musculus with 39 samples.

Results

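Igf2bp1, Igf2bp2 and Igf2bp3, Lin28a and Lin28b, and Hmga1 and Hmga2 are 7 mouse genes of 3 families that are known for their part in fetal growth and developmental timing. They were taken from a deposited table of chromatin immunoprecipitation (ChIP-seq) read counts at transcription start sites (TSS), by matching its Entrez gene IDs to these symbols. All 7 were found among the 24045 genes of the table. They were chosen by name and with their H3K4me3 and H3K27me3 values at the 3 stages already known, so those values are given as a description without a test.

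The study followed cerebellar granule cells from C57Bl/6J mice through 3 stages, postnatal day 7 (P7), day 12 (P12) and day 21 (P21). Antibodies from Active Motif and Cell Signaling Technology were used for H3K4me3, found at active promoters, and H3K27me3, the product of Polycomb repressive complex 2. H3K4me3 was measured in 3, 2 and 2 libraries at P7, P12 and P21, and H3K27me3 in 5, 4 and 5. No genotype or treatment differed. At P7 the starting material was granule cell progenitors from a Percoll gradient, and at P12 and P21 it was nuclei sorted as NeuN and NeuroD1 positive, with a longer sonication. In every comparison with P7, the stage, the isolation and the cells that it selects cannot be told apart. No statement in the labels says whether replicates came from separate animals, so the spread between libraries may be technical. In bulk chromatin, a mark on fewer cells and less of a mark per cell cannot be told apart, and marks found at 1 TSS need not lie on the same cells. No RNA was measured.

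The Lin28 proteins bind precursors of the let-7 microRNAs and block their maturation, and let-7 in turn represses Lin28, Hmga2 and Igf2bp messages, so fetal cells hold high Lin28 and low let-7, and adult cells the reverse. The Igf2bp proteins bind and stabilise messages of growth genes, and the Hmga proteins are small chromatin proteins that bend AT-rich DNA. In neural progenitors, Hmga2 and Lin28b are known to keep cells in a fetal, self-renewing state, and their levels fall with age.

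The mature let-7 sequences of the mouse (RefSeq, GRCm38.p6) are shown because they join the 3 families. Capitals mark the seed, bases 2 to 8, which is identical in all 9.
let-7a-5p: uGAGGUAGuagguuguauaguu
let-7b-5p: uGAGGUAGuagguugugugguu
let-7c-5p: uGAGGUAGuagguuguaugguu
let-7d-5p: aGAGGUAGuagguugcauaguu
let-7e-5p: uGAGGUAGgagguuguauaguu
let-7f-5p: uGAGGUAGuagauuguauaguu
let-7g-5p: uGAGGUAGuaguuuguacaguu
let-7i-5p: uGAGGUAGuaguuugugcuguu
miR-98-5p: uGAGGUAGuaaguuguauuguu

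The complement of this seed, CTACCTC, was searched on the transcribed strand of the longest curated 3' UTR of each gene. Every one of the 7 genes holds at least 1 match, whereas 8.36% of 18975 genes with a curated 3' UTR do. Hmga2, Lin28b and Igf2bp1 hold 4 matches each, a number that 8 of the 18975 genes reach. Their 3' UTRs are long, at 3021, 4446 and 6337 bases against a median of 835 over all genes. Among genes whose 3' UTR is between 0.5 and 2 times as long, 0.122%, 0.168% and 0.221% hold as many matches as Hmga2, Lin28b and Igf2bp1. Lin28a holds 2 matches, and Igf2bp2, Igf2bp3 and Hmga1 hold 1 each. As many are held by 2.11% of genes of like 3' UTR length for Lin28a, and by 11.8%, 13.4% and 9.12% for Igf2bp2, Igf2bp3 and Hmga1. Lin28, Hmga2 and Igf2bp are named above as let-7 targets, so their matches are not a finding of their own. A match is a description of the letters and was not tested for binding. The match nearest the stop codon in each gene is shown, with capitals for the match and coordinates of GRCm38.p6 for the 7 capitals.
Igf2bp1 (chr11:95961779-95961785, - strand): gctgtgcgaagtaaaCTACCTCaaggtg
Igf2bp2 (chr16:22059474-22059480, - strand): acacacaaataaaagCTACCTCaggtgt
Igf2bp3 (chr6:49086788-49086794, - strand): tgcatttttactcaaCTACCTCaggtat
Lin28a (chr4:134005190-134005196, - strand): gcacagcctgttgaaCTACCTCattttt
Lin28b (chr10:45381023-45381029, - strand): acccgggcgggaagtCTACCTCatgcaa
Hmga1 (chr17:27563292-27563298, + strand): tcctctgttcacaaaCTACCTCtggacg
Hmga2 (chr10:120364225-120364231, - strand): gccgacattcaatttCTACCTCagcatc

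The libraries held 431401 to 5653193 reads at TSS for H3K4me3, and 264093 to 2035801 for H3K27me3. As a check of the labelled cells, the summed H3K4me3 of 10 markers of granule cell progenitors lay between 880 and 1281 CPM (counts per 1e6 counts of the library, after scaling) at P7, between 478 and 527 CPM at P12 and between 406 and 501 CPM at P21. The sum of 10 markers of mature granule cells lay between 258 and 314 CPM at P7, 475 and 578 CPM at P12 and 472 and 500 CPM at P21. Of the 9 mature markers tested in P21 against P7, 5 were higher and 1 was lower. Neurod1 is among the mature markers and is listed at 0 in every library of both marks, so it checks nothing. The sum of 10 markers of astrocytes and Bergmann glia lay between 230 and 305 CPM at P21 and between 322 and 398 CPM at P7, with 3 of 9 tested lower at P21, 0 higher and none of the 10 at 0 counts. The 9 oligodendrocyte markers summed to 205 to 208 CPM at P21 and 169 to 188 CPM at P7, with 1 of 6 tested higher and 0 lower. The 8 markers of microglia and blood summed to 152 to 154 CPM at P21 and 58.1 to 119 CPM at P7, with 1 of 5 tested higher and 0 lower. Neither of these 2 sums overlapped between the stages. The sums of 10 vascular and meningeal markers (191 to 206 CPM at P21, 155 to 199 CPM at P7) and of 11 markers of other cerebellar neurons (327 to 332 CPM at P21, 316 to 380 CPM at P7) did overlap. No marker of these 4 lists was at 0 counts. The part of other cell types in the values below was not tested.

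Igf2bp3, an RNA-binding protein of the embryo that is largely silent in adult tissues, had the H3K4me3 log2 value farthest from 0 of the members tested in P21 against P7, and its H3K27me3 relative to the Hox genes differed most of the 7. With edgeR's TMM scaling (trimmed mean of M-values) its H3K27me3 log2 value was the smallest in size of the 7. Its H3K4me3 was at most 18.6 CPM in the later libraries and 41.0 to 96.9 CPM at P7, and its H3K27me3 was close to that of Hox genes at P21 and a small part of it at P7. Its promoter (RefSeq, GRCm38.p6, 250 bases before to 50 bases after the start of the curated transcript, which lies 515 bases inside the gene record) is shown with the CpG dinucleotides in capitals.
Igf2bp3 (chr6:49214905-49215204, - strand): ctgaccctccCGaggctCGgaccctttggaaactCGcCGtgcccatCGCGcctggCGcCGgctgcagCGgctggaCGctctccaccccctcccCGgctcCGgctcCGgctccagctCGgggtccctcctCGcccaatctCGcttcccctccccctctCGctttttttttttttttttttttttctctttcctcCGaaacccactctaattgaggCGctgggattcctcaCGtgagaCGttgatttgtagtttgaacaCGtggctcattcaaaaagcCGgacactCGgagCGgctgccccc

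This stretch holds 25 CpG, against a median of 13 over 18001 promoters of genes in the table, and 24.7% of those promoters hold as many. Its GC content is 60.3%. The E-box CACGTG occurs 2 times, and 8.21% of the promoters hold it at least once. The GC box GGGCGG (46.8% of promoters, both strands searched) and the TATA box TATAAA (13%) do not occur in it. The gene lies on chromosome 6 from 49085218 to 49215469 on the minus strand of GRCm38.p6, the assembly of mm10.

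At the Igf2bp3 TSS, H3K4me3 was 96.9, 41.0 and 62.1 CPM in the 3 libraries of P7, 18.6 and 8.76 CPM at P12, and 8.004 and 12.3 CPM at P21. Every library of P12 and P21 was below every library of P7, and P12 and P21 overlapped. The counts behind these values were 22 to 490 reads at P7 but 10 and 4 reads at P12 and 4 and 27 reads at P21, so that the exact 95% Poisson interval of the second P12 library ran from 2.39 to 22.4 CPM (counting error only). The log2 fold change was -2.65 (SE 0.38) in P21 against P7, -2.32 (SE 0.42) in P12 against P7 and -0.33 (SE 0.54) in P21 against P12. Over all 20748 TSS tested the median of P21 against P7 was 0.19, and 0.0241% of TSS had a value as low as that of Igf2bp3. The value in P21 against P7 lay between -3.14 and -2.25 over 13 alternatives of scaling, tool, filter and left-out library.

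H3K27me3 at the Igf2bp3 TSS was 94.9, 122, 123, 126 and 52.1 CPM at P7, 166, 186, 502 and 300.2 CPM at P12, and 127, 142, 351, 207 and 243 CPM at P21. Every later library was above every library of P7, by a narrow margin between the lowest of P21 and the highest of P7. The log2 fold change was 0.99 (SE 0.26) in P21 against P7, 1.46 (SE 0.27) in P12 against P7 and -0.47 (SE 0.26) in P21 against P12. The median of all 18089 TSS tested in P21 against P7 was 0.34, so that Igf2bp3 stood 0.65 above it, and 81.3% of TSS had a value as low or lower. With replicates 1 and 2 alone, the value in P21 against P7 was 0.27. It was above 0 in each of 24 alternatives.

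The size of these H3K27me3 values rests on how libraries were scaled. The 95th percentile of TSS counts was 5.00 to 12.9 times the median in the libraries of P12 and P21 and 22.1 to 45.0 times at P7. TMM scaling (trimmed mean of M-values) holds the bulk of TSS level between libraries, and under it the median Hox TSS was 856 to 1131 CPM at P7, 255 to 513 CPM at P12 and 168 to 325 CPM at P21. Hox genes are classical Polycomb targets in this brain region, and each member was therefore also set against the median Hox TSS of its own library, which needs no scaling between libraries but takes the Hox genes as the yardstick. By that ratio Igf2bp3 was 0.0978 ± 0.0215 of Hox at P7 (SD, n = 5), 0.807 ± 0.179 at P12 (SD, n = 4) and 0.911 ± 0.14 at P21 (SD, n = 5). The lowest ratio at P21 was 0.758 and the highest at P7 was 0.113.

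**Figure D1:**
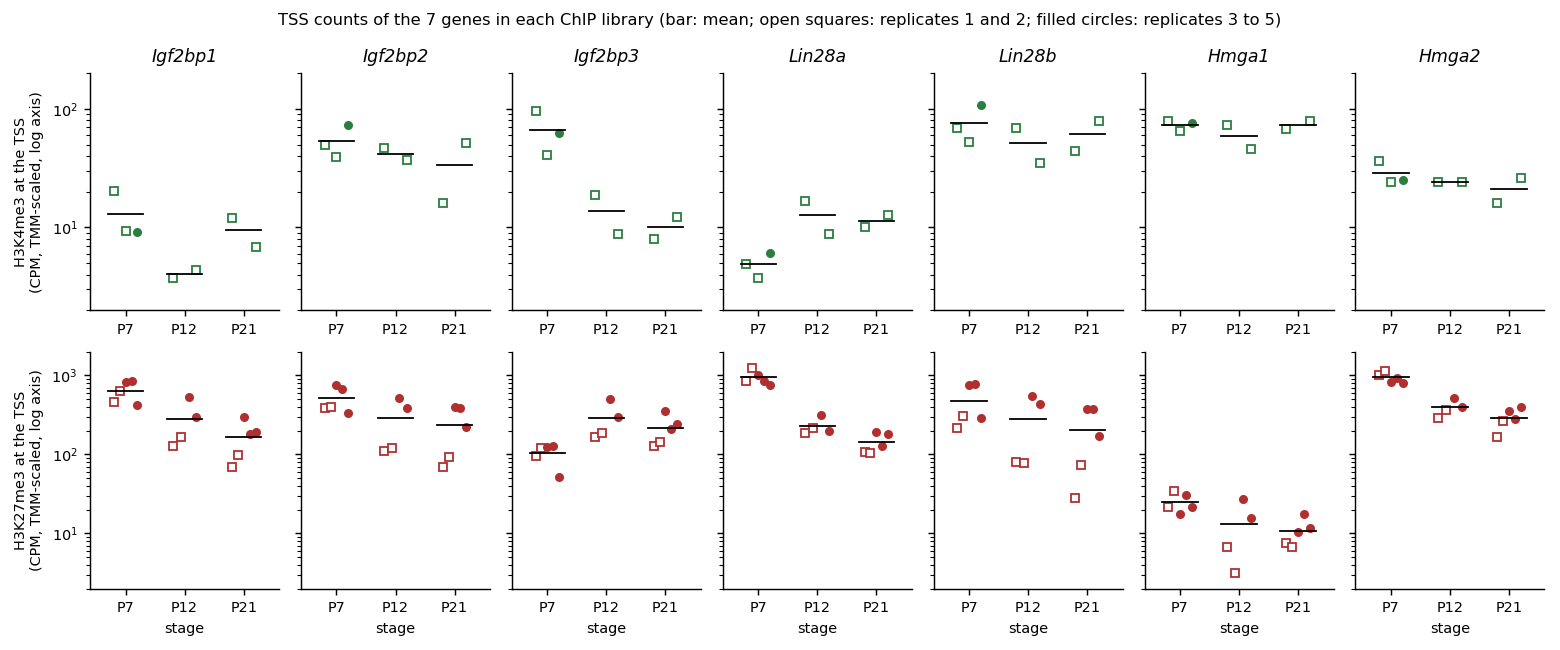
Counts at the TSS of each gene (y axis, CPM after TMM scaling, log axis) against stage (x axis) for H3K4me3 in the upper row and H3K27me3 in the lower; each point is a library, open squares are replicates 1 and 2 and filled circles replicates 3 to 5, and bars are means. Igf2bp3 H3K4me3 is at most 18.6 CPM at P12 and P21 and 41.0 CPM or more at P7. Mean H3K27me3 is lower later at the other 6 genes on this scale. P21 and P7 overlap at Igf2bp2, Lin28b and Hmga1, and P12 and P7 at these and at Igf2bp1. The direction in P21 against P7 turns round for 5 of the 6 (all but Lin28a) when libraries are scaled to Hox TSS. With a trended scaling it turns round for Igf2bp2, Lin28b and Hmga2.

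**Figure D2:**
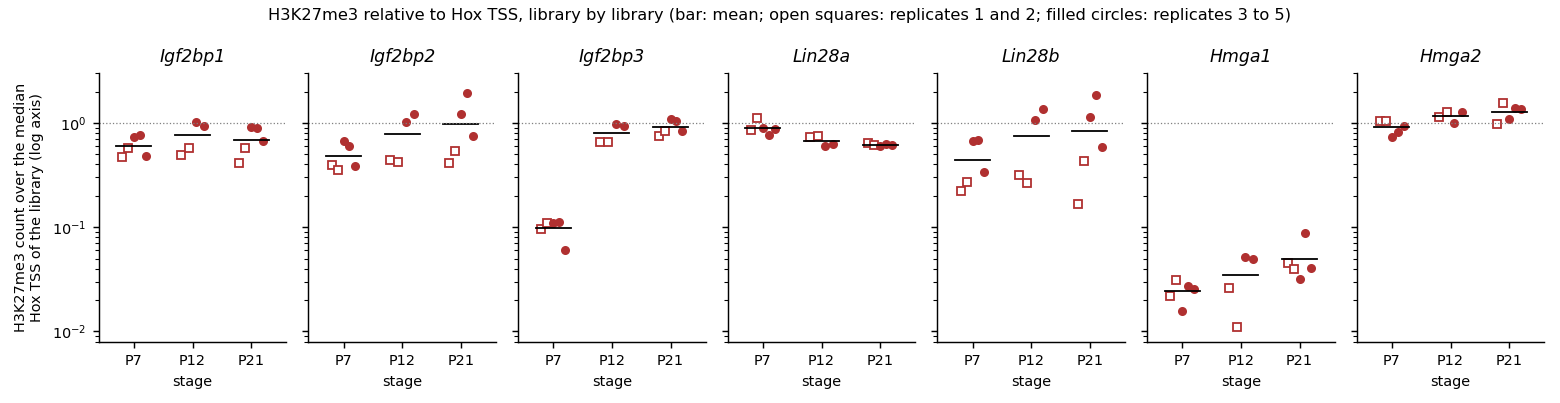
H3K27me3 at each TSS divided by the median Hox TSS of the same library (y axis, log axis) against stage (x axis); points are libraries, open squares are replicates 1 and 2, filled circles are replicates 3 to 5, bars are means and the dotted line is a ratio of 1. Igf2bp3 is at 0.758 to 1.08 at P21 and at 0.0609 to 0.113 at P7, Lin28a is at 0.595 to 0.636 at P21 and at 0.769 to 1.11 at P7, and Hmga1 is below 0.1 in every library.

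The deposited peaks show where the marks lay. An H3K4me3 peak was found within 1 kb of the Igf2bp3 start in replicates 1 and 3 of P7, at 5.3 and 2.3 kb wide, and in no library of P12 or P21. An H3K27me3 peak covered the start in all 14 libraries, including the 5 of P7. Its median width was 16.9 kb at P7, 18.8 kb at P12 and 21.3 kb at P21, with ranges of 16.5 to 18.0, 17.1 to 23.4 and 19.9 to 23.4 kb. The edge that moved lies inside the gene: the median peak reached base 49208992 at P21 and base 49212647 at P7, on the transcribed side of the start. Such peaks covered 2.17% of the gene at P7, 3.58% at P12 and 6.40% at P21 (medians). The mean over 20379 protein-coding genes lay between 2.26% and 10.4% in the libraries of P21 and between 6.66% and 13.5% at P7. Their median was 0% in every library. As far as Igf2bp3 were covered 5.37% to 22.4% of these genes in the libraries of P21 and 19.1% to 32.6% at P7. Peak widths move with what the caller found in each library, and lists of replicates 3 and later were longer, so these widths are a description.

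Igf2bp1 and Igf2bp2 differed from Igf2bp3. Igf2bp1, the member best known for binding Actb and Myc messages, lies on chromosome 11 from 95957163 to 96005944 (minus strand), and Igf2bp2, which is also expressed after birth and is linked to metabolism, on chromosome 16 from 22059009 to 22163299 (minus strand). H3K4me3 at Igf2bp1 was 20.4, 9.32 and 9.20 CPM at P7, 3.72 and 4.38 CPM at P12, and 12.01 and 6.86 CPM at P21. With 2 reads in each library of P12, it did not pass the filter on low counts and has no fold change. H3K4me3 at Igf2bp2 was 49.4, 39.1 and 73.6 CPM at P7, 46.6 and 37.2 CPM at P12, and 16.0 and 51.2 CPM at P21. The stages overlapped, with a log2 fold change of -0.51 (SE 0.31) in P21 against P7, and -1.79 without the second P21 library.

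H3K27me3 at Igf2bp1 was 461, 635, 820, 856 and 416 CPM at P7, 126, 164, 525 and 299 CPM at P12, and 68.7, 97.8, 296, 178 and 193 CPM at P21. At Igf2bp2 it was 389, 397, 764, 667 and 332 CPM at P7, 112, 122, 519 and 390 CPM at P12, and 68.7, 91.2, 395, 387 and 219 CPM at P21. P21 and P7 did not overlap at Igf2bp1 and overlapped at Igf2bp2, where replicates 3 and 4 were high at every stage. The log2 fold change in P21 against P7 was -2.06 (SE 0.26) at Igf2bp1, but 0.16 with Hox scaling and -0.15 with the trended scaling. At Igf2bp2 it was -1.38 (SE 0.27), but 0.91 with Hox scaling and 0.58 with the trended scaling. Relative to the median of all TSS, the values of Igf2bp1 and Igf2bp2 were -2.40 and -1.72 with TMM, -2.33 and -1.58 with Hox scaling, and -0.24 and 0.50 with the trended scaling. TMM and Hox scaling each set a single factor per library, so values relative to the median are close under both by construction. As a ratio to Hox, Igf2bp1 was 0.604 ± 0.136 at P7 (n = 5), 0.759 ± 0.262 at P12 (n = 4) and 0.691 ± 0.213 at P21 (n = 5), and Igf2bp2 was 0.483 ± 0.144, 0.776 ± 0.406 and 0.972 ± 0.621 (SD). These ratios overlapped between the stages.

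An H3K4me3 peak lay within 1 kb of the Igf2bp1 start in 1 of 3 libraries of P7 and in none of P12 or P21. At Igf2bp2 it was found in 2 of 3 at P7, 0 of 2 at P12 and 1 of 2 at P21. H3K27me3 peaks covered the Igf2bp1 start in all 14 libraries, with a median width of 36.0 kb at P7, and at P7 and P12 the median peak also held the start of Gip, a neighbouring gene that encodes a gut hormone. They covered the Igf2bp2 start in 13 of 14 libraries, all but replicate 2 of P21, with a median width of 10.6 kb at P7.

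Lin28a and Lin28b encode the let-7 blocking proteins themselves. Lin28a lies on chromosome 4 from 134003330 to 134019196 and Lin28b on chromosome 10 from 45376617 to 45486314, both on the minus strand. H3K4me3 at Lin28a was close to background, at 4.94, 3.73 and 6.13 CPM at P7, 16.8 and 8.76 CPM at P12, and 10.0 and 12.8 CPM at P21. The later libraries were higher, but from 4 to 28 reads, Lin28a did not pass the filter, and the median Hox TSS was itself at 13.03 to 16.0 CPM at P12 and P21. No H3K4me3 peak lay within 1 kb of its start in any of the 7 libraries. H3K4me3 at Lin28b was 68.8, 52.2 and 109 CPM at P7, 68.9 and 35.0 CPM at P12, and 44.0 and 79.1 CPM at P21. The stages overlapped, and the log2 fold change in P21 against P7 was -0.25 (SE 0.27), or 0.14 with the trended scaling.

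The promoter of Lin28a, again at the curated start, 380 bases inside the record, is shown beside that of Igf2bp3 because its H3K4me3 was low at all stages. Capitals mark CpG.
Lin28a (chr4:134018767-134019066, - strand): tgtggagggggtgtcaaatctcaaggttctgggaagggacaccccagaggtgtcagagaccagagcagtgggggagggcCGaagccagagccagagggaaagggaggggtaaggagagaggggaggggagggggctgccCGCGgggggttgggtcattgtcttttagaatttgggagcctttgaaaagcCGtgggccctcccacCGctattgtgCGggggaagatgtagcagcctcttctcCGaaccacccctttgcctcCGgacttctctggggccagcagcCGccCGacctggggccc

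It holds 10 CpG, and 57.5% of promoters hold as many. Its GC content is 63.3%. GGGCGG occurs 1 time, and CACGTG and TATAAA do not occur in this window.

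H3K27me3 at Lin28a was 847, 1233, 1019, 858 and 748 CPM at P7, 188, 212, 311 and 198 CPM at P12, and 107, 104, 193, 126 and 180.0 CPM at P21. No library of P12 or P21 reached any of P7. The log2 fold change in P21 against P7 was -2.74 (SE 0.24), and that in P12 against P7 was -2.04 (SE 0.25). It was the lowest of the 7 genes, with 4.45% of all TSS as low. Relative to the median of all TSS it was -3.07 with TMM, -3.04 with Hox scaling, close to TMM by construction, and -0.85 with the trended scaling. Over 24 alternatives the value in P21 against P7 lay between -3.36 and -0.54, with the value nearest 0 under Hox scaling. As a ratio to Hox, Lin28a was 0.904 ± 0.125 at P7 (SD, n = 5), 0.678 ± 0.0729 at P12 (SD, n = 4) and 0.62 ± 0.0157 at P21 (SD, n = 5). All 5 ratios at P21 lay between 0.595 and 0.636, and all 5 at P7 were 0.769 or more.

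The peak within 1 kb of the Lin28a start, which covered it in all libraries but 1 of P21, had a median width of 9.3 kb at P21, against 21.3 kb at P7, with 13.8 kb at P12. The ranges at P21, 3.1 to 12.3 kb, and at P7, 19.5 to 44.7 kb, did not overlap, although the peak lists of replicates 3 and later were longer at P21 than at P7 and those of replicates 1 and 2 shorter. In replicates 3, 4 and 5 of P21 a separate peak lay upstream, from -9.7 to -2.1, -9.1 to -3.7 and -9.9 to -2.1 kb. In replicates 1 and 2 of P21 a separate peak lay downstream, from 5.5 to 8.9 and 6.1 to 8.2 kb. At P7 the peak at the start reached upstream to between -26.7 and -9.5 kb. A narrower peak at the start thus need not be a smaller domain. H3K27me3 peaks covered 56.4% of the gene at P21 and 74.1% at P7 (medians), and these ranges overlapped.

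H3K27me3 at Lin28b was 218, 304, 764, 774 and 287 CPM at P7, 79.9, 76.6, 547 and 431 CPM at P12, and 28.0, 73.4, 371, 372 and 172 CPM at P21. The spread within a stage was the widest of the 7 genes, with replicates 3 and 4 above the others at each stage. The log2 fold change in P21 against P7 was -1.48 (SE 0.33), but 0.82 with Hox scaling and 0.31 with the trended scaling. Its ratio to Hox was 0.44 ± 0.227 at P7, 0.751 ± 0.545 at P12 and 0.839 ± 0.672 at P21 (SD), and the stages overlapped. The start of the gene record and that of the curated transcript are 16113 bases apart, and the sources used here do not say which was counted. At the record's start an H3K4me3 peak was present in 2 of 3, 1 of 2 and 1 of 2 libraries at P7, P12 and P21. At the curated start it was present in 1 of 3 at P7 and in none later, whereas H3K27me3 peaks covered both starts in 13 of 14 or more libraries.

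Hmga1 and Hmga2 differed most from each other. Hmga1, the member that is also found in many dividing adult cells, lies on chromosome 17 from 27556574 to 27563672 (plus strand), and Hmga2, the fetal member, on chromosome 10 from 120361268 to 120476469 (minus strand). H3K4me3 at Hmga1 was 79.7, 65.2 and 75.9 CPM at P7, 72.6 and 46.0 CPM at P12, and 68.0 and 79.6 CPM at P21. These overlapped throughout, with a log2 fold change of 0.00 (SE 0.27) in P21 against P7, or 0.42 with the trended scaling. H3K4me3 at Hmga2 was 36.2, 24.2 and 25.3 CPM at P7, 24.2 and 24.1 CPM at P12, and 16.0 and 26.1 CPM at P21, again with overlap between P21 and P7 and a log2 fold change of -0.40 (SE 0.39).

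The promoter of Hmga1 was the one member promoter with an H3K4me3 peak in all 7 libraries, and it is shown for that reason, with CpG in capitals.
Hmga1 (chr17:27556324-27556623, + strand): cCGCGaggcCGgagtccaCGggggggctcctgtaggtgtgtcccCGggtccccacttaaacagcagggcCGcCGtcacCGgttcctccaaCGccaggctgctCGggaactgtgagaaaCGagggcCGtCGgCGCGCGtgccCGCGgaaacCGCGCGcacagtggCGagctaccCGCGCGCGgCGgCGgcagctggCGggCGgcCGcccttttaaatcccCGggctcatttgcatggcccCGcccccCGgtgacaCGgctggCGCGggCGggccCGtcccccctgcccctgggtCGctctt

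It holds 40 CpG, which 4.94% of promoters reach, a GC content of 74.0% and 4 GGGCGG motifs. The Igf2bp2 promoter holds 47 CpG, the Hmga2 promoter 12 and that of the curated Lin28b transcript 8. The CpG number of the 6 member promoters at hand thus ran from 8 to 47, on both sides of the median of 13.

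H3K27me3 at Hmga1 was 21.3, 34.8, 17.6, 30.5 and 21.7 CPM at P7, 6.66, 3.12, 26.8 and 15.8 CPM at P12, and 7.63, 6.67, 10.3, 17.7 and 11.8 CPM at P21. These are 2 to 37 reads in a library, and the ratio to Hox was 0.0243 ± 0.00598 at P7, 0.0347 ± 0.0197 at P12 and 0.0492 ± 0.0225 at P21 (SD). The log2 fold change in P21 against P7 was -1.21 (SE 0.38), and it was 0.92 with Hox scaling. Small H3K27me3 peaks with a median of 1.7 kb lay upstream of the start within 1 kb in all 5 libraries of P7 and 2 of 4 of P12, none of which covered the start, and no library of P21 had one. An input peak also lay within 1 kb of the start in 2 of 5, 2 of 4 and 2 of 5 of these libraries at P7, P12 and P21.

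H3K27me3 at Hmga2 was 1019, 1148, 820, 923 and 801 CPM at P7, 291, 366, 515 and 401 CPM at P12, and 165, 262, 355, 280.1 and 392 CPM at P21. No library of P12 or P21 reached any of P7, yet the log2 fold change in P21 against P7 of -1.72 (SE 0.23) was 0.48 with Hox scaling and 0.58 with the trended scaling. Relative to the median of all TSS it was -2.06 with TMM, -2.02 with Hox scaling, close to TMM by construction, and 0.49 with the trended scaling. Its ratio to Hox was 0.912 ± 0.136 at P7 (SD, n = 5), 1.17 ± 0.128 at P12 (SD, n = 4) and 1.28 ± 0.232 at P21 (SD, n = 5). These ratios overlapped between the stages, with a highest value of 1.038 at P7 and lowest values of 1.004 at P12 and 0.985 at P21. Peaks of this mark covered 71.1% of the 115202-base gene at P7, 78.3% at P12 and 95.9% at P21 (medians), with overlapping ranges of 66.7% to 88.8%, 54.5% to 99.2% and 59.3% to 100%. At most 6.49% of protein-coding genes were covered as far in any library.

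**Figure D3:**
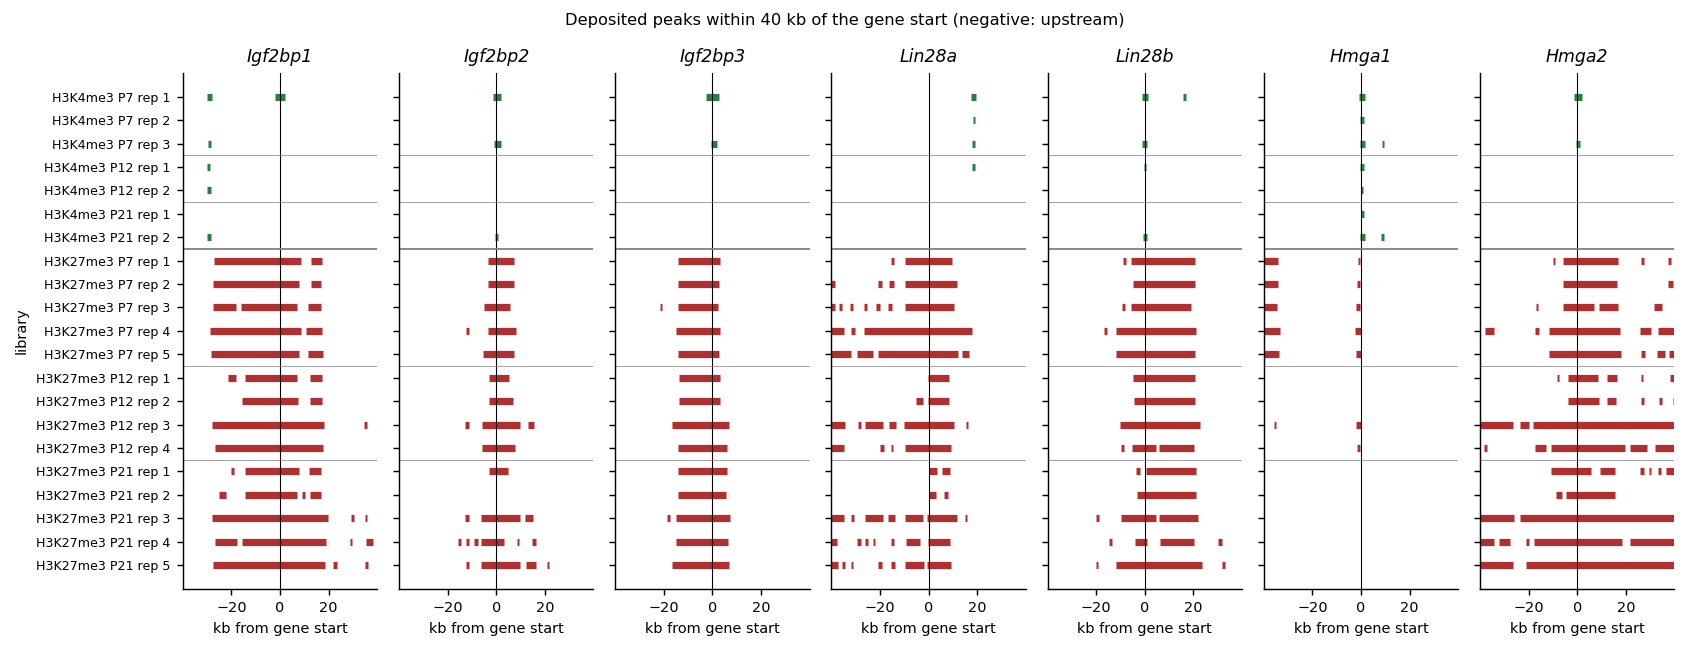
Deposited peaks within 40 kb of the start of each gene (x axis, kb along the direction of transcription, 0 at the start of the gene record) in each of the 21 ChIP libraries (rows); green bars are H3K4me3 peaks, red bars H3K27me3 peaks. H3K27me3 peaks span the start of Igf2bp3 in all 14 libraries while H3K4me3 peaks are there in 2 libraries of P7 only, and Hmga1 has H3K4me3 peaks in all 7 libraries.

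By peaks in at least 2 libraries within 1 kb of the start, 5 of the 7 genes had both marks at P7 (Igf2bp2, Igf2bp3, Lin28b, Hmga1 and Hmga2), 1 at P12 (Hmga1) and 0 at P21. Over all 23985 TSS with a gene record, both marks were found at 13.1% at P7, 2.2% at P12 and 1.33% at P21. H3K27me3 alone was found at Igf2bp1 and Lin28a at P7, and at all members but Hmga1 at P12 and P21, against 14.9%, 15.2% and 17.9% of all TSS at P7, P12 and P21. Hmga1 had H3K4me3 alone at P21, as 24.3% of all TSS had. The count of 5 at P7 was 1 without H3K4me3 replicate 1 or without replicate 3, because a peak was needed in both of the remaining libraries, and 1 with a stricter cut on the peak score. At P21 it was 2 when 1 library was enough. The rule asks for 2 of 3 H3K4me3 libraries at P7 but for both libraries at P12 and at P21. Replicate 2 of P7, with 543138 reads, had an H3K4me3 peak within 1 kb at Hmga1 alone. The libraries of P12 held 512122 and 431401 reads and those of P21 457470 and 2092414. The part of the rule and of depth in the lower counts at P12 and P21 was not tested. Of the inputs of the H3K27me3 libraries, those of replicates 3 and 4 hold 35722 to 86149 peaks each and the shared ones of replicates 1 and 2 hold 256 to 310, and input peaks lay within 1 kb of the starts of all 7 members in at least 1 library.

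Set side by side at P7, mean H3K27me3 was 942 CPM at Hmga2, 941 at Lin28a, 638 at Igf2bp1, 510 at Igf2bp2, 469 at Lin28b, 104 at Igf2bp3 and 25.2 at Hmga1. The ranges over the P7 libraries ran into each other from Hmga2 down to Lin28b, and those of Igf2bp3 and Hmga1 were each apart. Within libraries, Igf2bp1 was above Igf2bp2 and above Lin28b in every library of P7. At P21 the order was Hmga2 at 291 CPM, Igf2bp2 at 232, Igf2bp3 at 214, Lin28b at 203, Igf2bp1 at 167, Lin28a at 142 and Hmga1 at 10.8. Only the range of Hmga1 stood apart there. In every library of P21, Hmga2 and Igf2bp3 were each above Igf2bp1 and Lin28a. No difference between genes was tested. All of these are levels per TSS window, whose width is not given and was taken to be the same for all genes.

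Counted by the fit over all TSS, 1 of 5 members tested for H3K4me3 was called lower in P21 against P7 and 0 higher, where 23.4% of all TSS were called, 14.4% lower and 9% higher. The libraries of P21 and P7 did not overlap at 1 of the 5, which was lower, where 54.2% of all TSS did not overlap and 26% were lower. In P12 against P7 it was again 1 called lower, beside 14.5% of all TSS called and 9.14% lower, and 0 without P12 replicate 2. Here 2 of the 5 did not overlap and were lower (Igf2bp3 and Hmga2), beside 49.6% of all TSS and 24.9% lower. At Hmga2 the margin was very narrow, with 24.2 and 24.1 CPM at P12 (13 and 11 reads) and 24.23 CPM in replicate 2 of P7 (13 reads). In P21 against P12, 0 were called, as 0% of all TSS were, and 0 of the 5 were free of overlap, beside 30.2%.

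For H3K27me3 in P21 against P7, 6 of 7 members were called lower and 1 higher, where 48.9% of all TSS were called, 23.5% lower and 25.4% higher. Library totals gave 3 lower calls and 1 higher call, the trended scaling 2 of each, and Hox scaling 1 lower call and 3 higher calls. The shares of all TSS called under these scalings are not given here. The median of all TSS was 1.38 with library totals, 0.085 with the trended scaling and 2.49 with Hox scaling, against 0.34 with TMM. Relative to that median, Igf2bp3 alone of the 7 was above 0 with library totals and with Hox scaling. P21 and P7 did not overlap at 4 of the 7, 3 lower (Igf2bp1, Lin28a and Hmga2) and 1 higher (Igf2bp3), beside 28.5% of all TSS, 18.1% lower and 10.4% higher. In P12 against P7, 5 were called lower and 1 higher, beside 36.4% of all TSS, 22% lower and 14.4% higher. There 2 were lower without overlap and 1 higher, beside 27.1% of all TSS, 17.7% lower and 9.41% higher. In P21 against P12, 0 were called, beside 3.98%, and 0 were free of overlap, beside 4.6% of all TSS, 2.53% lower. The members were chosen with these contrasts known, so nothing is read from these counts.

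**Figure D4:**
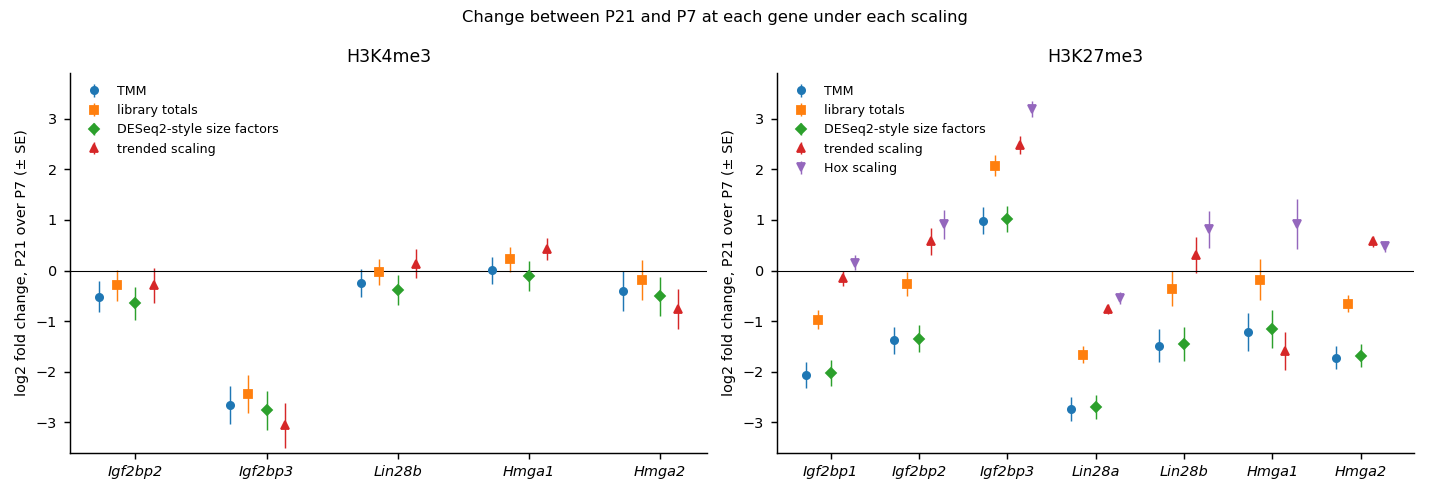
Log2 fold change of P21 over P7 (y axis, bars are SE) at each gene (x axis) for H3K4me3 on the left (5 genes that passed the filter) and H3K27me3 on the right, under each scaling of the libraries. Igf2bp3 lies below 0 for H3K4me3 and above 0 for H3K27me3 and Lin28a below 0 for H3K27me3 under every scaling, whereas H3K27me3 at Igf2bp2, Lin28b and Hmga2 is below 0 with TMM and above 0 with the trended and the Hox scaling, and at Igf2bp1 and Hmga1 above 0 with the Hox scaling alone.

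Over all 21 libraries, centred within each mark, Lin28b and Igf2bp2 followed each other closely (Pearson r = 0.949), whereas Igf2bp3 had r between -0.12 and 0.23 with the other 4 members that passed both filters. The libraries of a mark share their stage and depth, so these r describe patterns only. Among 16785 other TSS, the patterns most like Lin28b were those of Shisa6 (r = 0.982), Gbx1 (0.976) and Hs3st4 (0.972), and those most like Igf2bp2 were Grb10 (0.963), Prkg2 (0.96) and Kcng3 (0.957). For Igf2bp3 they were Tmtc1 (0.885), Fam83d (0.88) and Slc12a4 (0.876). For Hmga2 they were Rasgrf1 (0.972), Id3 (0.97) and Mkx (0.97), and for Hmga1 Susd5 (0.879), Mylk (0.879) and Phlda3 (0.874).

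Of 107 other genes of the Lin28, let-7, Igf2bp and Hmga pathways, 94 were tested for H3K4me3. In P21 against P7, 32 fell and 1 rose (edgeR quasi-likelihood test, Benjamini-Hochberg adjusted over all TSS), with a median of -0.52 against 0.19 over all TSS. Of all TSS tested in that comparison, 14.4% were called lower and 9% higher. Between P12 and P7, 24 fell and 1 rose, where 9.14% and 5.35% of all TSS were called lower and higher, and in P21 against P12 0 were called, with 4 at an unadjusted p under 0.05 and 0 called by DESeq2. The count of 32 was 11 without P21 replicate 1, 15 without P21 replicate 2, 20 without P7 replicate 1 and 14 with the trended scaling, so it rests on single libraries and on the scaling. For H3K4me3, too, the 95th percentile of TSS counts stood closer to the median later. It was 3 to 4.3 times the median at P12 and P21 and 5.2 to 9.3 times at P7. Its part in these falls was not tested. The count for P12 against P7 was 3 without P12 replicate 1, 1 without P12 replicate 2 and 43 without P7 replicate 2.

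Among 23 tested genes that are known let-7 targets, H3K4me3 fell at 7 and rose at 0, with a median of -0.46. Ccnd2, a cyclin of dividing progenitors, was at 32.1 ± 2.71 CPM at P21 (SD, n = 2) and 122 ± 13.2 CPM at P7 (SD, n = 3), which is -1.97 on the log2 scale (SE 0.29) with an edgeR adjusted p of 1.12e-08. Myc fell by 1.31 on the log2 scale (SE 0.28), and Mycn, a Sonic hedgehog target that drives these progenitors, fell too, with a log2 value of -1.19 (SE 0.26). Igf1r, a growth factor receptor, fell by 0.93 (SE 0.23), a call lost in 3 of 13 alternatives. Ccnd2 and Myc kept this call in each of the 13 alternatives.

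Of 17 genes that process let-7 or work with Lin28, 8 fell and 0 rose for H3K4me3. Hnrnpa1, an RNA-binding protein, fell by 1.55 (SE 0.29), Xpo5, which exports microRNA precursors, by 1.11 (SE 0.34), the helicase Ddx5 by 1.00 (SE 0.33) and Ago1 by 0.71 (SE 0.25). Of the 13 alternatives, Xpo5 lost its call in 5, Ddx5 in 7 and Ago1 in 8, and all 3 calls were lost with the trended scaling, where Ago1 was at -0.23. Of 19 Igf2bp partners and targets tested 8 fell and 0 rose, among them Actb by 1.07 (SE 0.23), Hnrnpu by 1.05 (SE 0.23), Gap43 by 1.27 (SE 0.30) and Dhx9 by 0.87 (SE 0.24). The calls of Actb (-0.52), Hnrnpu (-0.45) and Dhx9 (-0.32) were lost with the trended scaling. Of 11 other high mobility group proteins 5 fell and 0 rose, with Hmgn5 at -1.29 (SE 0.29), Hmgn1 at -0.90 (SE 0.24), Hmgb1 at -0.94 (SE 0.29) and Hmgb3 at -0.82 (SE 0.28). The count of 5 was 0 without P21 replicate 1, 9 without P7 replicate 2 and 1 with the trended scaling, where Hmgn1 (-0.41), Hmgb1 (-0.56) and Hmgb3 (-0.45) lost their calls. Of 14 tested genes of the fetal growth programme, E2f3 fell to 29.9 ± 2.92 CPM at P21 (SD, n = 2), against 80.3 ± 36.4 CPM at P7 (SD, n = 3), Mycn fell as above, and 0 rose. Plag1 fell by 0.99 (SE 0.35), a call lost in 9 of 13 alternatives. Progenitor markers fell alongside these lists, with 9 of 10 lower and 0 higher, and their part in these falls was not tested.

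For a microRNA gene such as those of let-7, the annotated start is that of its hairpin, which need not be where its primary transcript begins. Of 11 tested for H3K4me3, among 19 genes of let-7 and its neighbours miR-99, miR-100 and miR-125, Mir125b-1 fell by 1.54 (SE 0.36), Mirlet7i fell by 0.76 (SE 0.24) and Mir98 rose by 2.04 (SE 0.60), so 3 of 11 were called, where 23.4% of all TSS were. Mirlet7i lost its call in 5 of 13 alternatives, among them the trended scaling with a value of -0.26. Mir98 was at 24.0 ± 11.3 CPM at P21 (SD, n = 2) and 5.73 ± 1.52 CPM at P7 (SD, n = 3), and the call was lost in 3 of 10 alternatives, among them the trended scaling with a value of 0.40. Mirlet7e is listed at 0 in every library of both marks.

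For H3K27me3, 65 of the 107 pathway genes were tested, and in P21 against P7, 20 fell and 17 rose (edgeR quasi-likelihood test, adjusted over all TSS), where 23.5% of all TSS were called lower and 25.4% higher. With Hox scaling 2 fell and 52 rose, and with the trended scaling 12 fell, so the direction of most falls rests on the scaling. The median of all TSS was itself 2.49 with Hox scaling, 0.34 with TMM and 0.085 with the trended scaling. The shares of all TSS called under Hox and trended scaling are not given here, so the 52 is not read as a result about these genes. The rises of Myc, Mir100, Elavl2 and Tarbp2 held under each alternative that gave a value for them. Myc was at 120 ± 40.8 CPM at P21 (SD, n = 5) and 9.18 ± 4.7 CPM at P7 (SD, n = 5), which is 3.70 on the log2 scale (SE 0.31) with an edgeR adjusted p of 2.96e-15. Of 16 tested let-7 targets, 5 rose, Myc included, and 7 fell. Tgfbr3, a TGF-beta co-receptor, fell by 3.32 (SE 0.30) and also fell with Hox scaling, by 1.24. Nr2e1, a receptor of neural stem cells, fell by 2.19 (SE 0.23), but its value with Hox scaling was 0.00 and with the trended scaling 0.10. Acvr1c fell by 2.30 (SE 0.28), with a value of -0.23 and no call under Hox scaling.

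Meg3, an imprinted non-coding RNA, had the lowest value of the fetal growth programme, of whose 14 tested genes 8 fell and 3 rose. It was at 24.0 ± 13.7 CPM at P21 (SD, n = 5) and 256 ± 42.9 CPM at P7 (SD, n = 5), which is -3.35 on the log2 scale (SE 0.28) with an edgeR adjusted p of 2.33e-15, and the call held in each of 24 alternatives. H19, another imprinted RNA, fell by 2.36 (SE 0.26), and Plag1, an activator of Igf2, by 2.43 (SE 0.28), both without a call under Hox scaling. Dlk1, the growth gene next to Meg3, fell by 1.91 (SE 0.23) with TMM and was 0.30 with Hox scaling and 0.18 with the trended one.

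Among the partners of Lin28, Trim71 fell by 1.97 (SE 0.24), but was 0.23 with Hox scaling and 0.10 with the trended scaling. Trim71 is, like Lin28, a let-7 target of early development. Tarbp2 rose by 2.48 (SE 0.52) and Khsrp by 2.86 (SE 0.68), from means under 3 CPM at P7. Of the let-7 genes Mir100 rose by 2.14 (SE 0.30) and Mirlet7a-2 by 0.98 (SE 0.31), and Mir98 fell by 1.65 (SE 0.47), with a value of 0.46 under Hox scaling. Of the Igf2bp partners and targets Elavl2 rose by 1.89 (SE 0.26) and Matr3 by 2.07 (SE 0.56), and Mapk4 fell by 1.90 (SE 0.28), with a value of 0.23 under Hox scaling. Of the high mobility group proteins Hmgb2 rose by 1.56 (SE 0.50). The means at P7 were low for Hmgb2 (3.50 CPM, SD 4.06) and Matr3 (2.89 CPM, SD 2.23) as well. With the trended scaling, Khsrp (1.48), Mirlet7a-2 (0.73), Matr3 (0.95) and Hmgb2 (0.69) lost their calls.

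Cdkn2a and Cdkn2b, the cell cycle inhibitors that Hmga2 is known to hold down in young neural stem cells, both fell with TMM, Cdkn2a by 1.72 (SE 0.23) and Cdkn2b by 0.63 (SE 0.22). With Hox scaling their values were 0.48 and 1.56, and with the trended scaling -0.12 and 1.27, so that no direction holds across scalings.

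**Figure D5:**
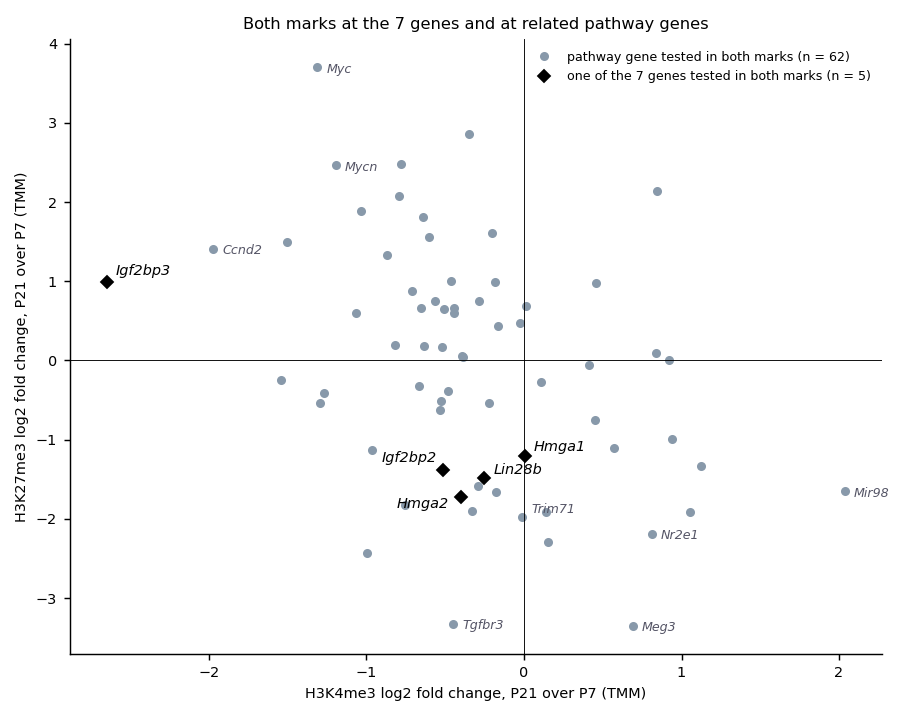
Log2 fold change of P21 over P7 for H3K4me3 (x axis) and H3K27me3 (y axis), both with TMM scaling, at 62 pathway genes (grey circles) and 5 of the 7 genes (black diamonds) that were tested in both marks. Igf2bp3 lies at -2.65 and 0.99, and Igf2bp2, Lin28b, Hmga1 and Hmga2 have H3K4me3 values from -0.51 to 0.00 and H3K27me3 values from -1.72 to -1.21, a sign that turns round with Hox scaling.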

How the data were processed

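The deposited counts are whole-number reads per gene TSS for the 21 ChIP libraries, 1 table for the series, and the deposited peak lists carry a score per peak, which is 0 throughout for H3K27me3 replicates 3 and later and their inputs. HOMER 4.11, ChIPseeker 1.30.3 and mm10 are named in the submitters' processing notes without a role. Aligner, counter and TSS window: not given in the sources used here. Peaks were deposited per library.

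Gene IDs were joined to RefSeq GRCm38.p6: 23985 of 24045 had a record, and 6 genes with missing H3K27me3 values were left out of that fit. Counts were fitted in R 4.3.3 with edgeR 4.0.16 (filterByExpr, TMM, robust quasi-likelihood, all 3 stages in 1 fit per mark, two-sided, Benjamini-Hochberg over all TSS, threshold 0.05). The H3K27me3 fit also had the input arrangement, since replicates 1 and 2 of a stage share an input and later ones have their own. The fits were tested on simulated data with a fixed dispersion and no difference in signal over background between stages. That check therefore says nothing on how the scaling acts in the real libraries. Same-numbered H3K27me3 libraries of P21 and P12 deviated together (r of 0.35 to 0.65, 4 pairs), so P21 against P12 was also fitted with a replicate block. Values reported for it are from the fit without the block. Libraries that share the input arrangement but not the number deviated together too, as P12 replicate 2 and P21 replicate 1 did (r = 0.51). With the replicate block, 1 pathway gene was called lower there, against 2 without it. P-values measure the spread between these libraries. CPM are counts per 1e6 after TMM. Alternatives were library totals, DESeq2-style size factors, trended scaling (limma 3.58.1 cyclic loess), DESeq2 1.42.0, no filter, a replicate block, the covariate, subsets by input, and each library left out. Hox scaling (to the summed count of 39 Hox TSS), the curated TSS and a crossed block were added after seeing the data. Peaks were read with Python 3.11.15 and pandas 2.3.3, and sequences with pysam 0.24.0.

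The members, gene lists and tests were chosen with earlier results of these data known. The genes named are the 7 members, up to 4 called genes per list and mark with the smallest p in P21 against P7, and the 3 TSS most correlated with each member, passing over predicted, microRNA and clone names. A gene in 2 lists counts in both.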

Additional observations from a re-analysis of the deposited data

Results flagged for a closer look

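Among 42 sets of 4 or 5 H3K27me3 libraries of a member and a stage, on the CPM scale and as a ratio to the median Hox TSS, 1 held a library far from the others: Hmga1 in replicate 4 of P21, whose ratio to Hox was 0.0885 while the other 4 libraries of P21 lay between 0.0318 and 0.0455. It rests on 17 reads. Chance alone places such a library in about 1 of 20 sets.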

How the results depend on the processing

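The H3K4me3 value of Igf2bp3 and the H3K27me3 values of Igf2bp3 and Lin28a kept their direction in P21 against P7 and in P12 against P7 under every alternative run. The H3K27me3 directions of the other members did not, and the cause was not tested. Hox scaling, the curated TSS and the crossed block were chosen after seeing the data. Low counts limit H3K4me3 at Igf2bp1 and Lin28a and H3K27me3 at Hmga1, which was not fitted with replicates 1 and 2 only.

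Among the other pathway genes, 32 were called lower for H3K4me3 in P21 against P7, and this was 20 with library totals, 14 with the trended scaling and 11 with the replicate block. The 1 called higher was 0 with DESeq2, 2 without a filter and 0 with the block. In P12 against P7 the 24 called lower were 9 with the trended scaling and 8 with the block, and the 1 called higher was 2 with totals and 0 with the trended scaling, DESeq2 or the block. For H3K27me3 in P21 against P7, the 20 called lower were 12 with totals, 12 with the trended scaling and 2 with Hox scaling, and the 17 called higher were 37, 6 with replicates 1 and 2 only, and 52 with Hox scaling. In P12 against P7 the 19 called lower were 10 with totals, 11 with the trended scaling, 9 with replicates 3 and later and 2 with Hox scaling, and the 14 called higher were 37 with totals, 5 with replicates 1 and 2, 9 with later ones and 48 with Hox scaling. In P21 against P12 the 2 called lower were 6 with DESeq2, 1 with the block, 0 with stage only, 5 with replicates 1 and 2, 0 with later ones and 0 with Hox scaling, and the 4 called higher were 1, 0 and 13 with replicates 1 and 2, later ones and Hox scaling.

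Of the members, the 6 called lower for H3K27me3 in P21 against P7 were 3 with totals, 2 with the trended scaling and 1 with Hox scaling, and the 1 called higher was 2 with the trended scaling, 0 with replicates 1 and 2 and 3 with Hox scaling. In P12 against P7 the 5 called lower were 1 with totals, 2 with the trended scaling, 3 with stage only, 1 with replicates 3 and later and 1 with Hox scaling, and the 1 called higher was 2 with the trended and 4 with Hox scaling. In P21 against P12 the 0 called lower were 1 with totals, 1 with DESeq2-style size factors, 2 with DESeq2 and 2 with replicates 1 and 2.

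H3K27me3 signs in P21 against P7 turned round with library totals for Cdkn2b (0.44), with the trended scaling for Igf2bp2 (0.58), Lin28b (0.31), Hmga2 (0.58), Trim71 (0.10), Nr2e1 (0.10), Dlk1 (0.18) and Cdkn2b (1.27), and with Hox scaling for Igf2bp1 (0.16), Igf2bp2 (0.91), Lin28b (0.82), Hmga1 (0.92), Hmga2 (0.48), Trim71 (0.23), Mir98 (0.46), Mapk4 (0.23), Cdkn2a (0.48), Cdkn2b (1.56) and Dlk1 (0.30). In P12 against P7 they did so for Lin28b with totals (0.0717), for Igf2bp1 (0.20), Igf2bp2 (0.52), Lin28b (0.51) and Hmga2 (0.45) with the trended scaling, and for Igf2bp1 (0.36), Igf2bp2 (0.69), Lin28b (0.78), Hmga1 (0.57, not called in the reported fit) and Hmga2 (0.36) with Hox scaling.

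With each library left out in turn, members called lower for H3K4me3 were 1 to 2 in P21 against P7 and 0 to 3 in P12 against P7, and pathway genes were 11 to 48 lower and 0 to 7 higher, and 1 to 43 lower and 0 to 4 higher. For H3K27me3, members called lower were 4 to 6 in P12 against P7 and 0 to 2 in P21 against P12. Pathway genes were 19 to 20 lower and 10 to 21 higher in P21 against P7, 16 to 19 lower and 8 to 17 higher in P12 against P7, and 1 to 3 lower and 2 to 5 higher in P21 against P12. Members with peaks of both marks were 1 to 5 at P7 and 0 to 1 at P12. The 5 at P7 were 1 where every library, or the peaks of higher score, were asked for. The 1 at P12 was 0 in those settings and without peaks that overlap the input, and 2 with any library, as were the 0 at P21.

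The replicate numbers were not taken to pair the H3K4me3 libraries, nor the H3K27me3 libraries with those of P7, where not every pair was over 0.1: same-numbered libraries had deviations correlated at r of -0.30 to 0.07 for H3K4me3 (6 pairs, 0 over 0.1) and -0.09 to 0.65 for H3K27me3 (13 pairs, 10 over 0.1), and 0 of 7 and 8 of 14 libraries followed their own number best. For H3K27me3 in P21 against P12, where all 4 pairs were over 0.1, 0 members were called with the replicate block and 0 without it. With numbers crossed between P12 and P21, 0 pathway genes were called for H3K4me3.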
